A study of Mus musculus with 9 samples.

Results

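DNA damage signalling and repair genes were followed across 3 groups of mouse samples. Their series concerns T-ALL, a leukemia of T cell precursors, and the effects of raised NOTCH1 that fall short of malignancy. The 44 genes are a list of named members of the damage response, sorted here into 9 roles. Of them 43 had a probe set (a group of short probes read as 1 value) annotated with that gene alone, out of 18193 such genes on the array, and Xrcc2 was not analysed here. The probe set with the highest mean over the 9 arrays stood for each gene. Each of the 43 exceeded its array's 40th percentile 9 times out of 9, so none was lost to the filter that left 13296 genes for testing.

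The groups were control, abnormal non-malignant and NIC tumor, with 3 samples and 3 arrays each. All 9 samples were RNA of sorted mouse cells. The labels used here give no genotype, strain, age, treatment or sorted population, do not spell out NIC, and do not say whether samples came from separate animals, so p-values measure only the spread between these samples. Levels are log2 values, and a difference of 1 is a factor of 2. Because probes differ in brightness, levels are compared between groups for 1 gene and not between genes.

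Cells meet DNA damage with several specialised systems. The kinases ATM and ATR sense breaks and stalled replication forks and signal through CHK2 and CHK1, while homologous recombination, the Fanconi anemia pathway, mismatch repair, nucleotide excision repair and base excision repair each handle their own kind of lesion. Developing T cells cut and rejoin their own antigen receptor genes, and ATM, the MRE11 complex and 53BP1 are known to guard those breaks. Many recombination and Fanconi genes are transcribed mainly in dividing cells, so their levels follow the cell cycle.

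Some arrays stood apart. No pair of arrays was as alike as non-malignant 2 and 3, whose gene by gene differences had an SD of 0.156, against 0.303 for the next pair (controls 1 and 3). Tumor array 1 lay nearer to the non-malignant arrays (SD 0.462 to 0.469) than to tumor arrays 2 and 3 (0.625 and 0.79). Counts are therefore also given without tumor array 1 and with non-malignant arrays 2 and 3 averaged. All 8 T lineage markers with a probe set (of 10 listed) passed the percentile on every array, and 4 of them fell in tumors against controls. Cd2, of the same list, rose in non-malignant samples (1.42, adjusted p = 0.0072) and lay above every control in tumors (0.56, adjusted p = 0.122). The summed linear level of the 8 was 44905 to 51302 in controls, 40125 to 45494 in non-malignant samples and 23873 to 35927 in tumors. Markers of CD4+CD8+ thymocytes summed to 40818 to 58804, 28696 to 31224 and 5496 to 21113 in the same order, and 7 of 9 fell in tumors against controls. Hba-a1 of the erythroid list (5 with a probe set) and Col3a1 of the stroma list (9) were under the percentile on every array. The 14 myeloid markers summed to 841 to 935 in controls, 1569 to 1754 in non-malignant samples and 1037 to 2668 in tumors, the erythroid markers to 262 to 285, 421 to 498 and 364 to 1320, the B cell markers to 502 to 722, 407 to 561 and 406 to 614, and the thymic stroma markers to 809 to 984, 856 to 931 and 925 to 1362. The part of these cell type shifts in the results below was not tested. In RNA of a whole sorted sample, fewer cells of a type and less RNA per cell cannot be told apart.

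NIC tumors were first set against controls. Apex1, which encodes the endonuclease that cuts DNA where a base is missing, rose 2.4-fold, and Ung, the glycosylase that removes uracil, rose 2.34-fold. Msh6, which recognises mismatched bases, was 2.46-fold lower, and Terf1 (TRF1, a protein bound to telomere repeats) and Rad52 (a recombination mediator) were lower by smaller factors. Of the 43 genes, 2 rose, 3 fell and 38 did not pass (limma with a trend, Benjamini-Hochberg adjusted p under 0.05 over all genes tested). That is 11.6% of the members, against 15.7% of all genes tested (8.48% higher and 7.19% lower), so the members' share was not above the background in this fit. It was slightly above with the mean of all probe sets of a gene (18.6%, against 16.1%). The same held with the probe set of highest variance (18.4%, against 16.2%). Under all other alternatives it was lower than the share of all genes. In the fit reported, 16 members stood at an unadjusted p under 0.05, against 32.2% of all genes. Groups did not overlap for 14 members, 9 higher and 5 lower, against 32.5% of all genes. The members' median log2 difference was 0.1 and that of all genes 0.06. The tumors varied more than the other groups, with a median SD over all genes of 0.3, against 0.17 in controls and 0.14 in non-malignant samples, while the model estimates 1 spread for the 3 groups. On simulated data with each gene's own SD in each group it made more false calls than its threshold allows. This held in both comparisons with tumors. An SD from 3 arrays is imprecise, so this does not measure the excess in these data. Without tumor array 1 the members called were 8 of 43, against 31.1% of all genes, and with non-malignant arrays 2 and 3 averaged they were 3, against 11%.

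**Figure D1:**
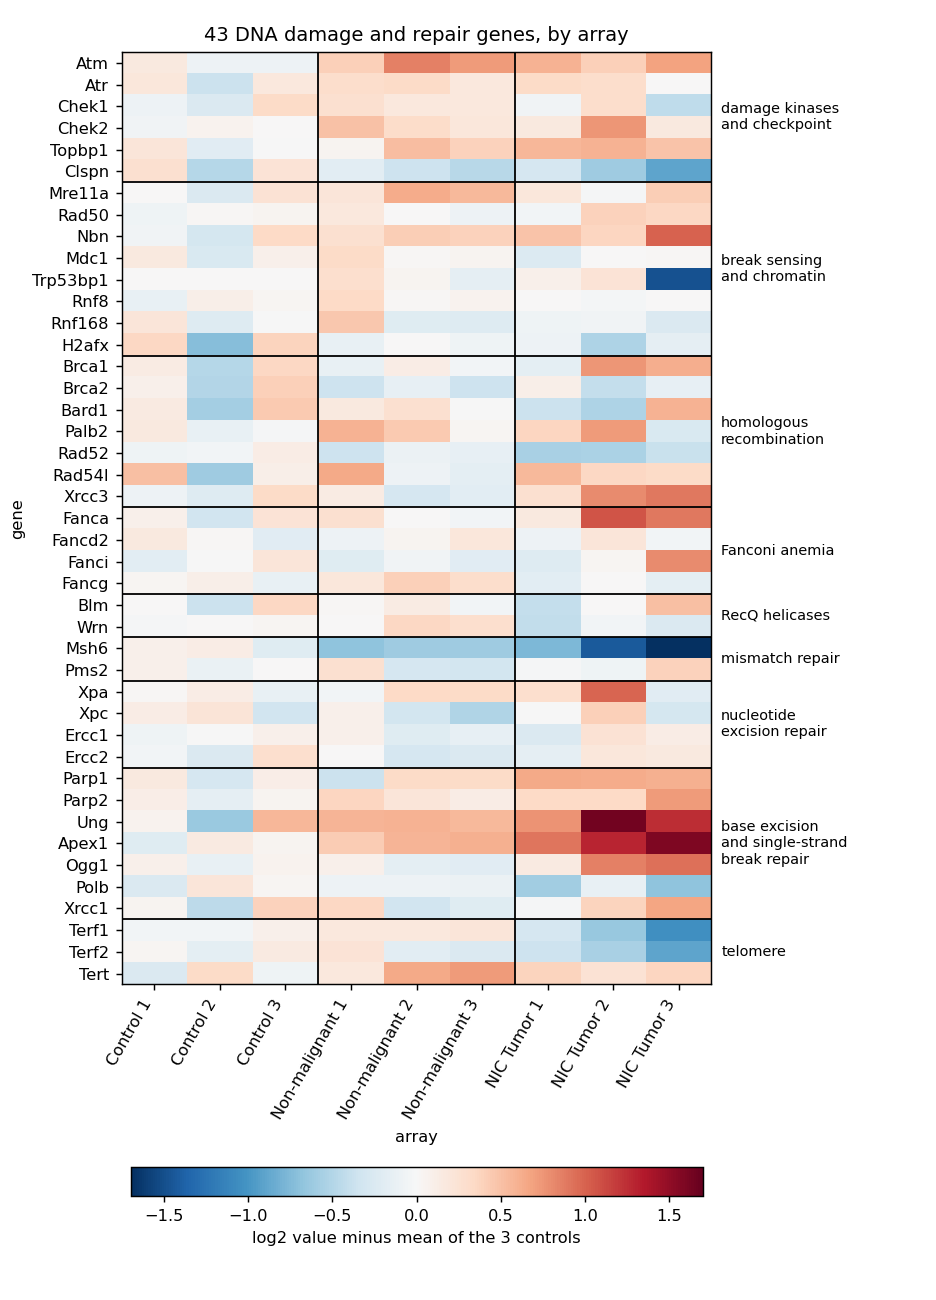
Log2 value of each of the 43 genes (rows, grouped by role) on each of the 9 arrays (columns) minus the mean of the 3 controls. Apex1 and Ung are red and Msh6 blue across the 3 tumor arrays.

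Promoter sequences are shown for the 4 called genes with the largest change that have an entry in RefSeq's promoter table (GRCm38.p6, 250 bases before to 50 after the start of the gene, read 5′ to 3′ on the gene's strand), because they rose or fell within the same comparison. Terf1 has no entry. Capitals mark 5 motifs searched on both strands, TTCCCGC and TTGGCGC (cores bound by E2F factors, which drive S phase genes), CACGTG (the E-box of MYC and related factors), TTCCCA (the core of the Notch partner RBPJ) and CCAAT.
Apex1, rose, chr14:50924699-50924998, plus strand: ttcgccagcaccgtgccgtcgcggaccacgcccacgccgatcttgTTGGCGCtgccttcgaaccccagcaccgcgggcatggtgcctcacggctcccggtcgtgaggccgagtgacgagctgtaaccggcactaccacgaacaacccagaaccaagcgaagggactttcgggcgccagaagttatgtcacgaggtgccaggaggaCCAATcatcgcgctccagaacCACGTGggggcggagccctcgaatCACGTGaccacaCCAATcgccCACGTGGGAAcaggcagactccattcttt
Ung, rose, chr5:114130185-114130484, plus strand: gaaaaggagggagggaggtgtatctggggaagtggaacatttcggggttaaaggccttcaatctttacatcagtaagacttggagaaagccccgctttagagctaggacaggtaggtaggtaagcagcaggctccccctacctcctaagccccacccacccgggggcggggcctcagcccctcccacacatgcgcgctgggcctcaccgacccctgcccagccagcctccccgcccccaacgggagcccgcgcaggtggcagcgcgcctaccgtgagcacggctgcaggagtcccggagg
Msh6, fell, chr17:87974800-87975099, plus strand: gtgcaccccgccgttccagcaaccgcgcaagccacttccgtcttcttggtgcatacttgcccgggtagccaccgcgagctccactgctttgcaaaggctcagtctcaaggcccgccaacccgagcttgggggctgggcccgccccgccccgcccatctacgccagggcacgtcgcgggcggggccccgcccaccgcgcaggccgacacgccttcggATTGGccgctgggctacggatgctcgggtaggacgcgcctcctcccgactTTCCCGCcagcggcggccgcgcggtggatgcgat
Rad52, fell, chr6:119902448-119902747, plus strand: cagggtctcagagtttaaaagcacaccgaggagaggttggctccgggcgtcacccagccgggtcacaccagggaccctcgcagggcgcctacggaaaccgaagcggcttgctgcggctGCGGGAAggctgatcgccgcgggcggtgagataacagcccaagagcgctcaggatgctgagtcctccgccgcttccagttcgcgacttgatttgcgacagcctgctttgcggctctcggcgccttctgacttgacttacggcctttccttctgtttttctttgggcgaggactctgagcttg
The Apex1 window held 3 E-boxes, 2 CCAAT motifs, 1 TTGGCGC and 1 TTCCCA, the last sharing bases with an E-box, whereas the Ung window held none of the 5. Msh6 held TTCCCGC and CCAAT, and Rad52 held TTCCCGC on the minus strand. Of the 35 members with a promoter entry, 17 (48.6%) held either E2F motif, against 6.93% of 27025 promoters in the table and 11.7% of the 10697 promoters of genes tested here. CACGTG was found in 3 of 35 members (8.57%) and 9.58% of the genes tested, TTCCCA in 10 (28.6%) and 23.2%, and CCAAT in 20 (57.1%) and 38.5%. Base composition was not matched between these sets, and a match of letters is not evidence of binding.

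Base excision repair and single-strand break repair held 7 members. Apex1 read 9.59, 9.94 and 9.84 in controls 1 to 3, 10.22, 10.37 and 10.39 in non-malignant samples and 10.7, 11.09 and 11.38 in tumors. The 3 groups did not overlap, with controls lowest and tumors highest. Tumors exceeded controls by 1.27 ± 0.19 (log2, SE; limma adjusted p = 0.00361), and the call held with each of the 9 arrays left out (1.1 to 1.44). The chosen Apex1 probe set carries the Affymetrix suffix x, which warns of probes shared with other transcripts, and the probe set without a suffix differed by 1.96 in the same direction. Ung read 7.51, 6.82 and 8.02 in controls, 8.03, 8.04 and 8 in non-malignant samples and 8.22, 9.09 and 8.71 in tumors. All tumors lay above all controls, and the controls themselves spread by more than 1 unit. The tumor difference was 1.22 ± 0.31 (adjusted p = 0.0266), and the call ended without control 1, control 2, tumor 2 or tumor 3 (0.91 to 1.51 over the 9 fits).

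The other 5 members of this group did not pass in tumors against controls, with positive differences for all but the gap-filling polymerase gene Polb. Ogg1, the glycosylase for oxidised guanine, read 7.47, 7.27 and 7.45 in controls, 7.47, 7.23 and 7.2 in non-malignant samples and 7.54, 8.25 and 8.33 in tumors. Tumor array 1 sat just above the highest control and the other tumors well above it, so that the difference of 0.65 (adjusted p = 0.0747) passed only when tumor array 1 was left out among the 9 such fits (adjusted p = 0.00402). Parp1, the nick sensor that builds poly(ADP-ribose) chains, read 9.78, 9.34 and 9.73 in controls, 9.26, 9.95 and 9.95 in non-malignant samples and 10.26, 10.25 and 10.22 in tumors. The tumors lay within 0.04 of each other and above the other 6 arrays, and the difference from controls was 0.63 (adjusted p = 0.0809). Parp2, its smaller relative, differed by 0.47 (adjusted p = 0.0994) with every tumor above every control. Xrcc1, the scaffold of single-strand break repair, differed by 0.34 and Polb by −0.47, with overlapping groups. Polb was called lower with the mean of all its probe sets (−0.86, adjusted p = 0.0299), and 1 of its dimmer probe sets lay below every control in all tumors (−1.10). With the probe sets used, 2 of the 7 rose and none fell, against 8.48% and 7.19% of all genes tested. Every tumor lay above every control for 5 of the 7, against 18.2% of all genes tested. The group's median difference was 0.63, against 0.06 over all genes.

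**Figure D2:**
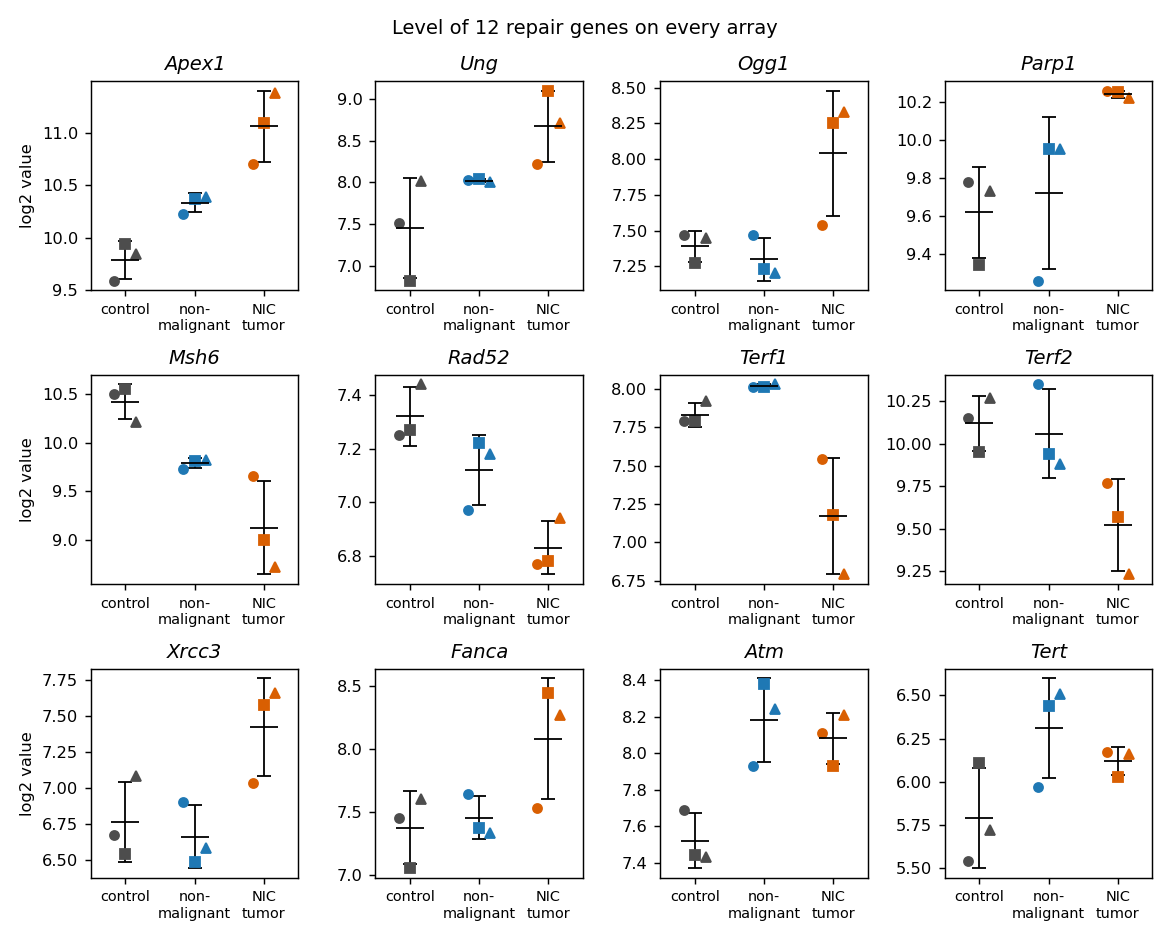
Log2 level of 12 repair genes on every array (circles, squares and triangles are replicates 1, 2 and 3; bars are the group mean ± SD, n = 3; each panel has its own axis, which does not start at 0). For Apex1 and Msh6 the 3 groups do not overlap, and for Parp1 the 3 tumors lie within 0.04 of each other.

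Other enzymes of base excision repair, taken from a list of 15 tested genes, moved in both directions in tumors. Their median difference from controls was 0.11. Every tumor lay above every control for 2 of them and below for 2. Of the 15, 20% were called, against 15.7% of all genes tested. Nthl1, a glycosylase for oxidised pyrimidines, rose from 6.03, 5.73 and 5.89 to 6.33, 7.01 and 6.86 (0.85, adjusted p = 0.0156), and Lig3, the ligase partner of XRCC1, rose by 0.85 (adjusted p = 0.0411). Pcna, the sliding clamp of replication and repair, fell by 0.48 (adjusted p = 0.0392), and the remaining 12 did not pass. Neil1, another glycosylase, was lower in tumors than in non-malignant samples by 1.76 (adjusted p = 0.0284). It read 9.67, 9.64 and 9.82 in controls, 10.32, 10.61 and 10.61 in non-malignant samples and 9.69, 8.45 and 8.11 in tumors, so that tumor array 1 resembled the controls.

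Mismatch repair held Msh6 and Pms2. Msh6 read 10.5, 10.55 and 10.21 in controls, 9.73, 9.81 and 9.82 in non-malignant samples and 9.66, 8.99 and 8.72 in tumors. No group overlapped another, with controls highest and tumors lowest, and tumor array 1 lay close to the non-malignant arrays. Msh6 fell by 1.30 ± 0.23 in tumors against controls (adjusted p = 0.00788), and the call held with each of the 9 arrays left out (−1.57 to −1.1). Pms2, part of the nuclease step, stood at 8.42 ± 0.1 in controls (mean ± SD, n = 3), 8.31 ± 0.33 in non-malignant samples and 8.52 ± 0.25 in tumors, with overlapping groups. A dimmer Pms2 probe set differed by −0.84 between tumors and controls, so the probe sets of this gene disagreed. Of 3 other mismatch repair genes tested, 0 passed in any comparison by limma, with 1 at an unadjusted p under 0.05 in tumors against non-malignant samples and 0 in the other comparisons.

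Telomere genes held Terf1, Terf2 and Tert. Terf1 read 7.79, 7.79 and 7.92 in controls, 8.01, 8.01 and 8.03 in non-malignant samples and 7.54, 7.18 and 6.79 in tumors. On this probe set all tumors lay below all other arrays, and the non-malignant samples lay just above the controls. A dimmer Terf1 probe set, which passed the percentile on 7 arrays, was lower on every non-malignant array than on any control (−0.98), and its tumors and non-malignant samples overlapped (−0.48). With the mean of all Terf1 probe sets the difference of tumors from non-malignant samples was −0.48 (limma adjusted p = 0.191). Terf1 fell by 0.66 ± 0.19 against controls (adjusted p = 0.0471) and by 0.85 ± 0.19 against non-malignant samples (adjusted p = 0.0438). Both calls were at the edge: of the 9 fits with 1 array left out, each passed only in that without tumor array 1, with differences of −0.84 to −0.47 and −1.03 to −0.66, and both ended with non-malignant arrays 2 and 3 averaged. Terf2, which folds and protects the telomere end, read 10.15, 9.95 and 10.27 in controls, 10.35, 9.94 and 9.88 in non-malignant samples and 9.77, 9.57 and 9.23 in tumors. Its tumors also lay below every other array, without passing (−0.60, adjusted p = 0.0719). Tert, the catalytic subunit of telomerase, read 5.54, 6.11 and 5.72 in controls, 5.97, 6.44 and 6.51 in non-malignant samples and 6.17, 6.03 and 6.16 in tumors. These levels were close to the 40th percentile of the arrays (5.14 to 5.3), the groups overlapped, and the difference of tumors from controls was 0.33 (adjusted p = 0.266; 95% interval −0.1 to 0.76).

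Of 11 other telomere genes tested, 3 rose in tumors against controls and none fell (27.3%, against 15.7% of all genes tested). Nhp2 rose from 9.44, 9.02 and 9.52 to 10.8, 11.5 and 11.57 (1.96, adjusted p = 0.00112), Gar1 by 1.54 (adjusted p = 0.00484) and the pseudouridine synthase gene Dkc1 by 1.33 (adjusted p = 0.0229). These 3 encode box H/ACA proteins, which also modify ribosomal RNA. Nhp2 was also higher in tumors than in non-malignant samples (1.09, adjusted p = 0.0351).

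Homologous recombination held 7 measured members, of which Rad52 alone passed in tumors against controls (14.3%, against 15.7% of all genes tested). None passed in the other comparisons. Rad52 read 7.25, 7.27 and 7.44 in controls, 6.97, 7.22 and 7.18 in non-malignant samples and 6.77, 6.78 and 6.94 in tumors. On this probe set the groups did not overlap, but the distances were small, and Rad52 fell by 0.48 ± 0.14 against controls (adjusted p = 0.0472). Its call ended in 8 of the 9 fits with 1 array left out (all but that without tumor array 3; −0.54 to −0.42), with non-malignant arrays 2 and 3 averaged and under quantile normalization. Its second probe set differed by −1.07 with tumors below all controls, but there the non-malignant samples overlapped the controls (0.11). Xrcc3, a recombination factor, read 6.67, 6.54 and 7.08 in controls, 6.9, 6.48 and 6.58 in non-malignant samples and 7.03, 7.57 and 7.66 in tumors. Tumor arrays 2 and 3 were higher than every other array, tumor array 1 lay below the highest control, and the difference of 0.66 did not pass (adjusted p = 0.0732; 0.014 without tumor array 1).

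Brca1, the ubiquitin ligase that directs break ends to recombination, split the tumors. It read 8.72, 8.1 and 8.93 in controls, 8.45, 8.71 and 8.53 in non-malignant samples and 8.41, 9.33 and 9.2 in tumors, so that tumor array 1 lay among the controls and the other tumors above them (0.4, adjusted p = 0.362). Dimmer Brca1 probe sets differed by 0.16, 1.04 and 1.42. Brca2, a mediator of strand exchange, read 8.06, 7.47 and 8.37 in controls, 7.62, 7.83 and 7.62 in non-malignant samples and 8.07, 7.56 and 7.83 in tumors, and its groups overlapped. Control array 2 was the lowest control for every recombination member but Rad52, with a median of −0.48 relative to the control mean over the 7 members. On the same array G2/M genes stood at −0.49 and G1/S genes at −0.28. Bard1, the partner of BRCA1, Palb2, the bridge between BRCA1 and BRCA2, and the translocase gene Rad54l differed by −0.1, 0.27 and 0.41 between tumors and controls, with overlapping groups. Of 16 other recombination genes tested, 1 passed in tumors against controls (6.25%, against 15.7% of all genes tested) and none in the other comparisons. It was Rad51ap1, which fell by 0.85 (limma adjusted p = 0.0173).

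The Fanconi anemia genes and the RecQ helicases held 6 members, and 0 passed in any comparison by limma. At an unadjusted p under 0.05 there were 1 of the 4 Fanconi genes in tumors against controls and 2 in tumors against non-malignant samples, 1 of the 2 helicases in the latter, and none in non-malignant samples against controls. Fanca, of the core complex, stood at 8.44 and 8.27 on tumor arrays 2 and 3 and at 7.05 to 7.64 on the other 7 arrays. Its difference from controls was 0.71 (adjusted p = 0.0881), and 0.00784 was the adjusted p without tumor array 1. Fancd2 and Fanci, which are ubiquitinated as a pair at stalled forks, differed by 0.02 and 0.2, and Fancg by −0.11. Wrn, the helicase and exonuclease lost in Werner syndrome, read 6.96, 6.98 and 7.01 in controls, 6.98, 7.33 and 7.27 in non-malignant samples and 6.56, 6.93 and 6.74 in tumors. The tumors lay below both other groups by small distances (−0.45 against non-malignant samples, adjusted p = 0.121). Blm, the helicase that dissolves crossed DNA strands, differed by 0.04.

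Of 12 other Fanconi genes tested, 1 rose and 1 fell in tumors against controls (16.7%, against 15.7% of all genes tested). In tumors against non-malignant samples 1 rose (8.33%, against 4.23%), and none passed in non-malignant samples against controls. Fance, of the core complex, rose in tumors against controls (0.69, adjusted p = 0.0181) and against non-malignant samples (0.84, adjusted p = 0.0252), with 7.26, 7.44 and 7.49 in tumors and at most 6.85 elsewhere. Ube2t, which encodes the conjugating enzyme of this pathway, fell by 0.75 (adjusted p = 0.036).

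Damage kinases and checkpoint genes held 6 members. Atm read 7.69, 7.44 and 7.43 in controls, 7.93, 8.38 and 8.24 in non-malignant samples and 8.11, 7.93 and 8.21 in tumors. Every non-malignant and every tumor array lay above every control. The differences were 0.66 (adjusted p = 0.0837) and 0.56 (adjusted p = 0.058), and they share the controls. Among the 12 alternatives that keep every array, Atm passed in tumors under 4 (quantile normalization, the filter at the 60th percentile, the mean of its probe sets and no variance trend, adjusted p = 0.0441 to 0.0469). In non-malignant samples it passed under 2, with only the 2 groups compared (adjusted p = 0.0413) and with array weights (adjusted p = 0.00201). The second Atm probe set gave 0.38 and 0.58, again without overlap. Atr, its counterpart at stalled forks, differed by 0.26 and 0.21, and Chek1, the kinase below ATR, by 0.21 and −0.07. Chek2, the kinase below ATM, differed by 0.33 and 0.35, with both groups above every control. Topbp1, the activator of ATR, was higher on every tumor array than on any control (0.55, adjusted p = 0.0637), but its dimmer probe set differed by −0.42. Clspn, the adaptor between ATR and CHK1, differed by −0.59 in tumors (adjusted p = 0.132).

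Of 20 other checkpoint genes tested, 1 rose and 4 fell in tumors against controls (25%, against 15.7% of all genes tested). Tlk1, a chromatin kinase, fell by 1.14 (adjusted p = 0.0112), Etaa1, an activator of ATR, fell by 1.74 (adjusted p = 0.0268), and Rad1, part of the clamp loaded at damage, rose by 0.77 (adjusted p = 0.0317). On the Etaa1 probe set tumor array 3 read 5.3, against 6.83 to 8.46 on the other 8 arrays.

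Break sensing and chromatin genes held 8 members, and 0 passed in any comparison by limma, with 1 each at an unadjusted p under 0.05 in the comparisons with controls and 0 in tumors against non-malignant samples. Mre11a, the nuclease of the complex that holds break ends, read 7.66, 7.4 and 7.9 in controls, 7.86, 8.28 and 8.2 in non-malignant samples and 7.84, 7.63 and 8.07 in tumors. Its non-malignant difference was 0.46 (adjusted p = 0.358), with control 3 above non-malignant 1. Its partners Rad50 and Nbn differed from controls by 0.24 and 0.62 in tumors, every tumor value of Nbn lying above every control (adjusted p = 0.0795). Trp53bp1 (53BP1, which favours end joining over recombination) read 8.67 on each control, 8.95, 8.72 and 8.52 in non-malignant samples and 8.76, 8.9 and 7.19 in tumors. Tumor array 3 alone was low. The other Trp53bp1 probe sets that passed the percentile differed by 0.29 and 0.2 between tumors and controls, and the one used by −0.38. Mdc1, Rnf8 and Rnf168, which carry the signal from marked chromatin to 53BP1, and the histone gene H2afx (H2ax in current naming) differed between tumors and controls by −0.26 to −0.01, with overlapping groups.

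Of 14 other break response genes tested, 1 rose and 2 fell in tumors against controls (21.4%, against 15.7% of all genes tested). Smc5, a subunit of a cohesin-like complex, fell from 8.88, 8.74 and 8.71 to 7.95, 7.24 and 6.6 (−1.51, adjusted p = 0.0103). Rnf169, which competes with 53BP1 for marked chromatin, fell by 1.11 (adjusted p = 0.0195), and Babam2, of the BRCA1-A complex, rose by 0.74 (adjusted p = 0.0301).

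Nucleotide excision repair held 4 members. Xpa and Xpc, which find and verify helix-distorting lesions, and Ercc1 and Ercc2, a nuclease partner and a helicase, differed between tumors and controls by 0.36, 0.03, 0.04 and 0.07, with overlapping groups in every comparison. Their 95% intervals reached from −0.52 to 0.96, the widest upper bound being that of Xpa. Tumor array 2 read 8.07 for Xpa against 6.89 to 7.42 on the other 8 arrays. By limma 0 of the 4 passed in any comparison, and 0 at an unadjusted p under 0.05. Of 14 other excision repair genes tested, 0 passed in any comparison, with 2 at an unadjusted p under 0.05 in non-malignant samples against controls and 3 in each of the other comparisons.

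**Figure D3:**
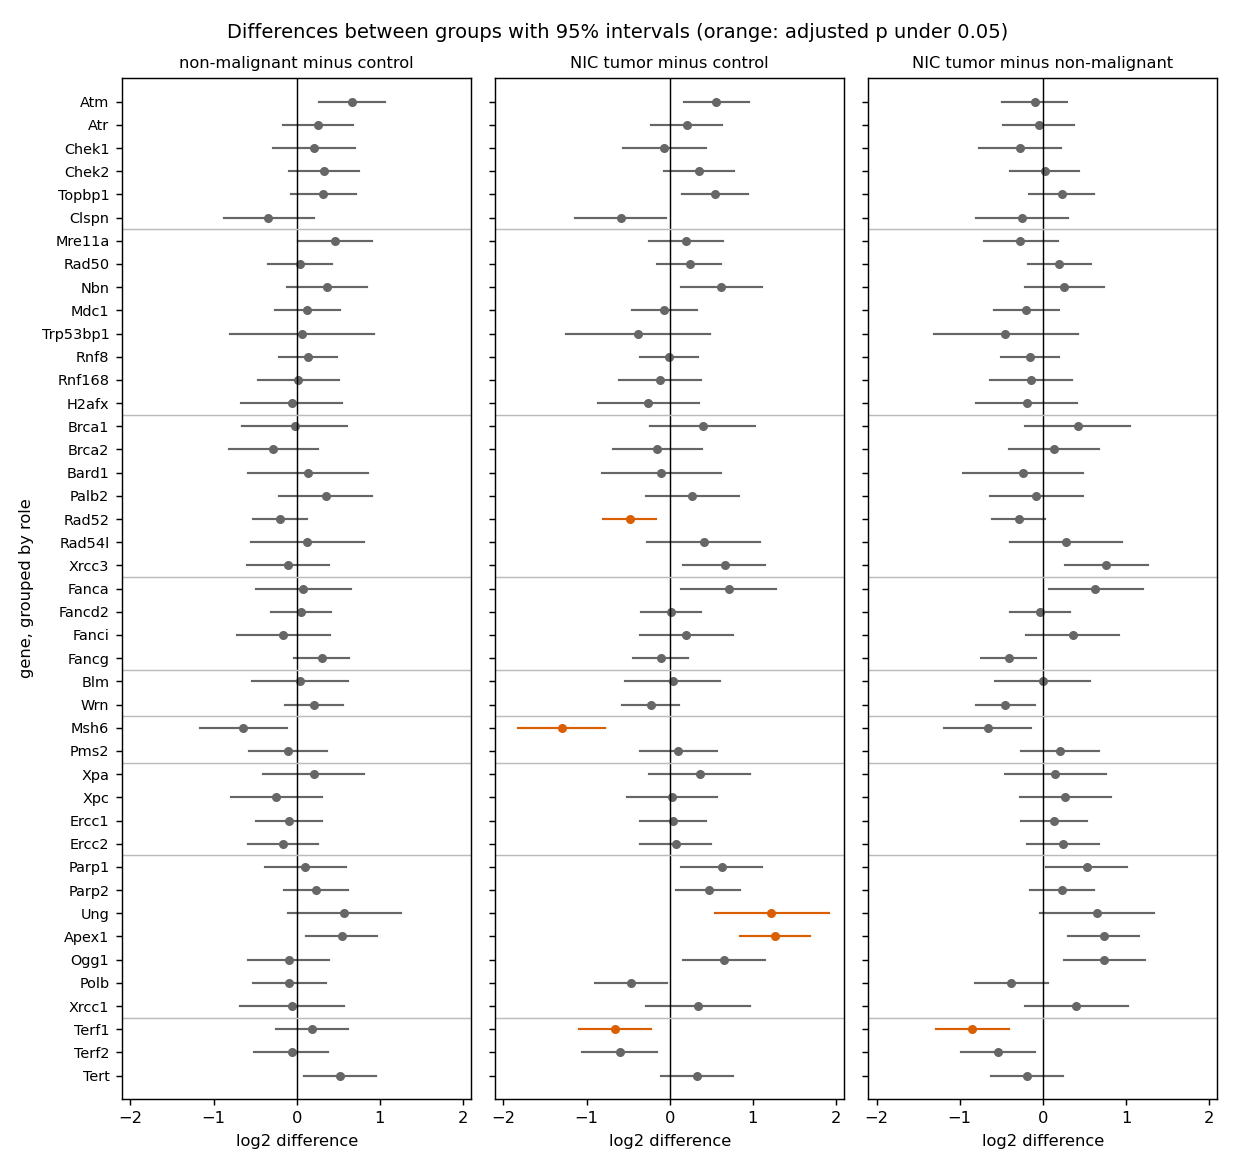
Log2 difference of the group means for the 43 genes, with its 95% interval from limma, in the 3 comparisons (panels). Orange marks an adjusted p under 0.05, which holds for 0 genes in the left panel, 5 in the middle panel and Terf1 in the right panel.

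Abnormal non-malignant samples were set against controls next. None of the 43 genes passed by limma, against 3.53% of all genes tested (2.87% higher and 0.654% lower), and 5 stood at an unadjusted p under 0.05, against 13.3% of all genes. Under the alternatives the count was 0 to 2 except with array weights, which gave 7, against 18.2% of all genes. The differences ran from −0.64 for Msh6 to 0.66 for Atm, with a median of 0.08 against 0.01 over all genes. Groups did not overlap for 8 genes, 6 higher and 2 lower, against 26.1% of all genes. Msh6 lay lower on every non-malignant array than on any control (−0.64, adjusted p = 0.24) and passed without tumor array 1 (adjusted p = 0.0499). It also passed with only the 2 groups compared (adjusted p = 0.0276) and with array weights (adjusted p = 0.00636). Apex1 lay higher on every non-malignant array (0.54, adjusted p = 0.225). Tert differed by 0.52 (adjusted p = 0.249), non-malignant array 1 lying below control 2, and its dimmer probe set, which passed the percentile on 5 arrays, differed by 1.09 without overlap. Tert passed with the mean of its probe sets (0.80, adjusted p = 0.0275) and with array weights (0.73, adjusted p = 0.00337).

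Of 126 other repair genes tested in this comparison 1 passed. Xrcc6, which encodes the Ku70 subunit that binds broken ends for end joining, rose from 11.35, 11.77 and 11.23 to 12.43, 12.55 and 12.48 (1.04, adjusted p = 0.0263). In tumors it read 12.23, 11.4 and 11.81. Other end joining genes passed in tumors against controls, where 2 of 9 rose and 2 fell (44.4%, against 15.7% of all genes tested). Xrcc5, for the Ku80 subunit, rose from 6.58, 6.23 and 6.92 to 7.74, 8.12 and 8.95 (1.69, adjusted p = 0.00746), and the polymerase gene Poll rose by 1.23 (adjusted p = 0.0161). Lig4, the ligase of end joining, fell by 1.18 (adjusted p = 0.0213) and was also lower in tumors than in non-malignant samples (−1.36, adjusted p = 0.0335). The other gene that fell was Dntt (−4.91), which is also 1 of the 7 CD4+CD8+ thymocyte markers that fell in tumors. Over all 126 genes 10 rose and 11 fell in tumors against controls, 16.7% of them, against 15.7% of all genes tested. Of 12 translesion synthesis and damage reversal genes 0 passed in any comparison by limma, with 6 at an unadjusted p under 0.05 in tumors against controls, 2 in tumors against non-malignant samples and 1 in non-malignant samples against controls. The shares of all genes at that p were 32.2%, 25.9% and 13.3% in the same order.

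NIC tumors were last set directly against abnormal non-malignant samples. Of the 43 genes 1 passed, Terf1, which fell, against 4.23% of all genes tested (1.53% higher and 2.7% lower). This depended on the probe set. With the mean of all probe sets of a gene Terf1 did not pass by limma (−0.48, adjusted p = 0.191). In that fit Apex1 (1.06, adjusted p = 0.0353) and Rad52 (−0.73, adjusted p = 0.036) passed, against 3.84% of all genes. The differences ran from −0.85 for Terf1 to 0.76 for Xrcc3. Groups did not overlap for 13 genes, 5 higher and 8 lower, against 27.1% of all genes. The 5 were Apex1 (0.73, adjusted p = 0.0633), Ung (0.65), Ogg1 (0.74, adjusted p = 0.0844), Parp1 (0.53) and Xrcc3 (0.76, adjusted p = 0.0794), against 12.3% of all genes in that direction, and 4 of them belong to base excision repair. The 8 lower genes were Terf1, Msh6, Terf2, Wrn, Fancg, Polb, Rad52 and Rnf8, with differences of −0.85 to −0.15, against 14.8% of all genes, and Polb (−0.38) is also of base excision repair. Without tumor array 1 the members called were 7, namely Ogg1, Terf1, Msh6, Apex1, Xrcc3, Fanca and Terf2, against 25.7% of all genes. With non-malignant arrays 2 and 3 averaged 0 were called by limma, against 0.549% of all genes, and 10 of the 43 stood at an unadjusted p under 0.05 with all arrays, against 25.9% of all genes.

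The arrays of a group were not alike in these genes. The median difference of the base excision members from the control mean was 0.33, 0.63 and 0.73 on tumor arrays 1, 2 and 3, against −0.01, 0.09 and 0.06 over all genes tested. That of the 3 telomere members was −0.29, −0.55 and −0.89. The recombination members stood at 0.11, 0.35 and 0.33. On the same arrays the median of 27 G1/S and DNA replication genes was −0.01, 0.17 and 0.19, and that of 18 G2/M and mitosis genes was −0.47, −0.37 and −0.53. Of the G1/S genes 1 rose (Mcm3, 1.33, adjusted p = 0.00822) and 2 fell in tumors against controls. Of the G2/M genes 7 fell and none rose, Top2a by 0.95 (adjusted p = 0.00349). The shares called were 11.1% and 38.9%, against 15.7% of all genes tested. Of 14 tested p53 target genes 1 fell, Sesn1 (−1.88, adjusted p = 0.0202), and none rose. Their median difference was −0.67, against 0.06 over all genes, and 8 stood at an unadjusted p under 0.05, against 32.2% of all genes. Their medians on tumor arrays 1, 2 and 3 were −0.31, −0.41 and −1.19. The part of the cell cycle in the repair genes was not tested.

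**Figure D4:**
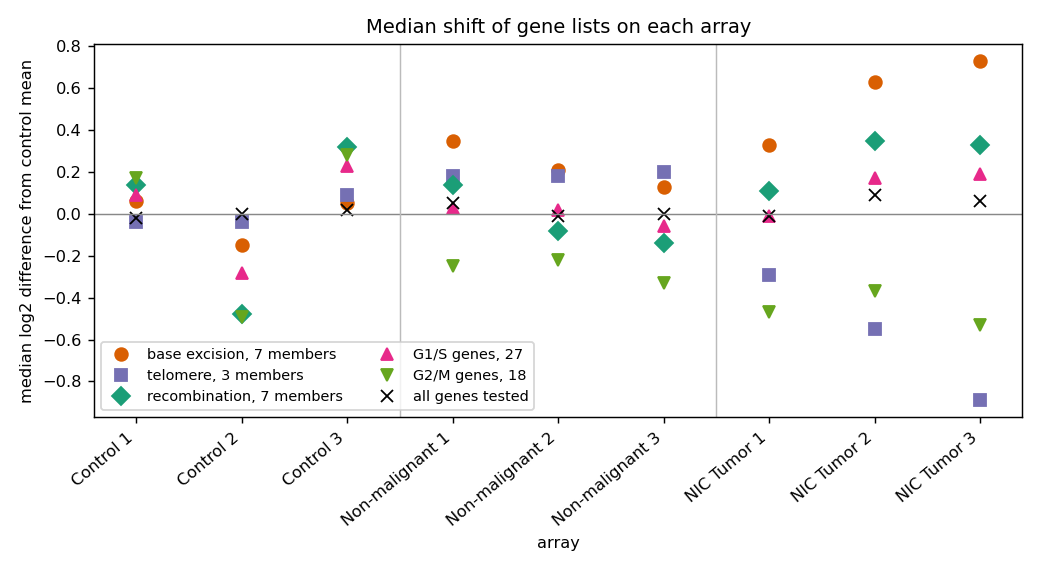
Median log2 difference from the control mean over the genes of 5 lists and over all genes tested (vertical axis), on each of the 9 arrays (horizontal axis). Base excision members reach 0.63 and 0.73 on tumor arrays 2 and 3, while the G2/M genes lie at −0.53 to −0.37 on the tumor arrays.

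The choice of probe set mattered for some members. More than 1 probe set passed the percentile for 27 of the 43 genes, and for 19 of these all probe sets lay on the same side of 0 in tumors against controls. For Apex1, Ogg1, Xrcc3, Fanca and Parp1 every such probe set was higher in tumors. For Rad52, Polb and Terf1 every such probe set was lower, with values of −1.25 to −0.47 for Polb and −1.46 to −0.20 for Terf1. For Pms2, Terf2 and Trp53bp1 they pointed both ways. Msh6 and Ung had 1 probe set each.

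**Figure D5:**
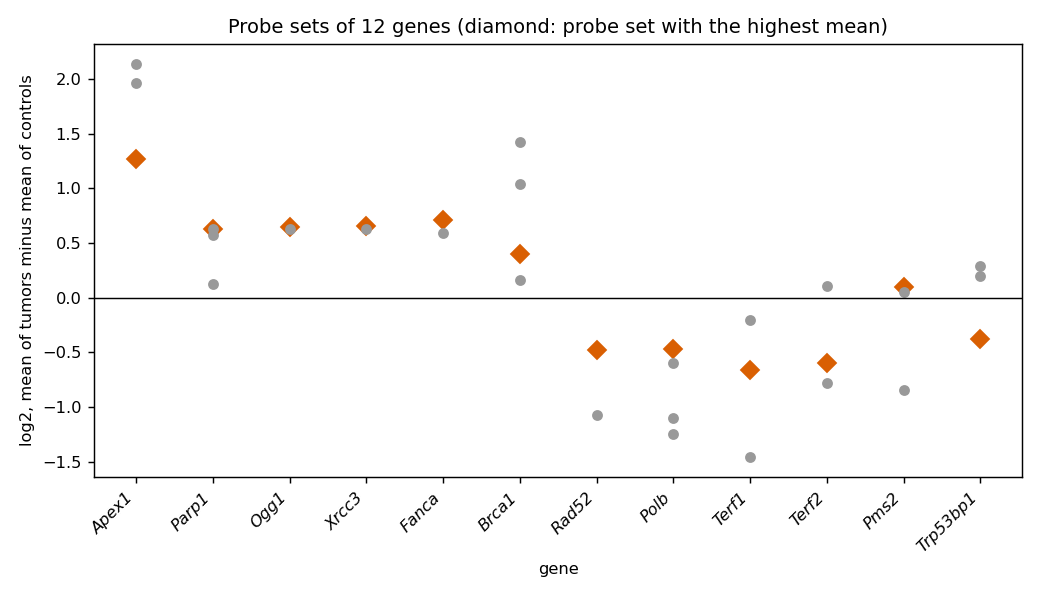
Difference of the means of tumors and controls (log2, vertical axis) for each probe set of 12 genes that passed the 40th percentile on at least 3 arrays. Diamonds are the probe sets used, and circles the others; Apex1 probe sets lie between 1.27 and 2.14, and those of Trp53bp1 on both sides of 0.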

How the data were processed

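RNA of 9 samples was measured on 1 Affymetrix array each. Per the labels' protocols, sorted cells gave RNA through TRIZOL and RNeasy columns, which was made into biotinylated cRNA, and a core facility handled the arrays. Values for 45101 probe sets were deposited on a log2 scale (2.68 to 14.57). Background correction, normalization and summarization are not given in the sources used here, and the log base was read from the values.

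Probe sets with exactly 1 symbol (34945; 932 had several and 9224 none, 64 Affymetrix controls included) were assigned to 18193 genes, 34741 of them through the Entrez ID. The probe set with the highest mean stood for a gene, and a gene was tested if it lay above the 40th percentile on at least 3 arrays. Array medians lay between 5.67 and 5.77, and no normalization was added. The 9 arrays entered a single limma model with a mean for each group, version 3.58.1 (R 4.3.3; residual df 6, prior df 3.6, variance trend), two-sided, with Benjamini-Hochberg adjustment over 13296 genes. Tables were made with Python 3.11.15 and pandas 2.3.3. Simulated data were drawn with each gene's own SD in each group of 3 arrays. There the model recovered the direction of change, but made more false calls than its threshold allows in the comparisons with tumors. With 3 against 3, exact permutation p-values stop at 0.1, so none is given. The number of arrays limits the precision.

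Members described on every array are those called, the 5 with the smallest p in each comparison, and Tert, Atm, Trp53bp1, Brca1, Brca2 and Parp1; others are given by difference or range, and Fanca, Terf2, Neil1, Etaa1 and Xpa values on single arrays were added after they were seen. Of other repair, cell cycle and p53 genes, the 3 per list with the smallest adjusted p were eligible to be named where called. Dntt, outside these 3, was named because it is also on a marker list. The members and lists were chosen with earlier results of these data known. The alternatives were 12 settings and leaving out each of the 9 arrays. Array CGH and karyotypes were not used here.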

Additional observations from a re-analysis of the deposited data

How the results depend on the processing

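Of the 6 calls of members (Apex1, Ung, Msh6, Terf1 and Rad52 against controls, Terf1 against non-malignant samples), 126 alternatives kept the call in 80 and ended it in 46, and none reversed a direction. Calls of members are given in the order non-malignant against control, tumor against control, tumor against non-malignant, and were 0, 5 and 1 in the fit reported. They were 7, 14 and 21 with array weights (with 2421, 4885 and 5700 genes called in all). With only the 2 groups compared they were 2, 2 and 0 (1119, 841 and 110 in all). With the mean of all probe sets they were 1, 8 and 2, against 3.81%, 16.1% and 3.84% of all genes. The probe set with the highest variance gave 0, 7 and 1 of 38 members, against 3.34%, 16.2% and 3.27%. Without a filter on dim probe sets they were 0, 3 and 0, against 2.41%, 9.88% and 2.1%. With median scaling they were 0, 4 and 0, against 3.5%, 14.9% and 3.61%. With non-malignant arrays 2 and 3 averaged they were 0, 3 and 0, with 218, 1468 and 73 genes in all. With 1 array left out they ranged over 0 to 1, 2 to 8 and 0 to 7, and all genes called over 205 to 708, 926 to 4121 and 53 to 3400, the highest values coming without tumor array 1. After each gene's group mean was subtracted, correlations between arrays of different groups lay between −0.0468 and 0.222 for same-numbered arrays. For the others they lay between −0.262 and 0.211. With 3 arrays a group these values cannot settle whether the replicate numbers pair the samples. A replicate block gave 0, 3 and 0 members and 399, 1915 and 287 genes. The cause of these changes was not tested. With 1 array left out, the calls of Rad52 and Terf1 against controls held in 1 of the 9 fits, and that of Ung in 5. The calls of Rad52 and Terf1 also ended without a non-malignant array, with differences from controls of −0.48 and −0.66 as before.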
